A study of Mus musculus with 6 samples.

Results

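The proliferin genes Prl2c2 (ENSMUSG00000079092), Prl2c3 (ENSMUSG00000056457) and Prl2c5 (ENSMUSG00000055360) were examined in cultured lung mesenchymal stromal cells (LMSCs) of the MMTV-PyMT mammary tumour mouse. They are 3 of the 34745 genes in the RNA-seq table, and they were chosen by gene name after their values in these libraries had been seen. Their levels are therefore given as a description with no test, and tests are given only for other genes. The copies are nearly identical in sequence, so their sum (the family sum) is given beside each of them.

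The 6 libraries analysed here were made from total RNA of LMSCs at passage 3, with 2 libraries for each of 3 tumour stages. By the labels, A-LMSCs came from mice of 6 to 7 weeks, PM-LMSCs from mice of 9 to 10 weeks and M-LMSCs from mice of 13 to 14 weeks, whereas the study's methods give slightly older mice for the A and PM stages. The labels call the A-LMSCs E-LMSCs, and the series' design text places these at the adenoma or early pre-metastatic stage. The PM-LMSCs are its L-LMSCs, of early carcinoma or the late pre-metastatic stage, and the M-LMSCs are of the metastatic stage. All of the mice carried the polyoma middle T transgene, which the mouse mammary tumour virus promoter drives mainly in mammary epithelium, so no library here comes from a tumour-free animal. Age and stage cannot be told apart, and 1 further library per stage that the study mentions was not used here. The study describes its replicates as mice, although the labels do not tie each library to an animal, so every p-value measures the spread between the libraries analysed here.

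Proliferins are secreted glycoproteins of the prolactin family, also known as mitogen-regulated proteins. They were found in cultured mouse fibroblasts, in which serum and growth factors induce them, and in the animal their main source is the trophoblast giant cell of the placenta. Proliferin acts on endothelial cells and is angiogenic, and it binds the cation-independent mannose 6-phosphate receptor, which Igf2r encodes. The mouse genome holds several nearly identical copies, which limits what short reads can say about each copy alone.

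In the GRCm38 build, all 3 genes lie on chromosome 13. Prl2c3 is at chr13:12790816-12800079 on the minus strand, Prl2c2 at chr13:12996125-13005383 on the minus strand and Prl2c5 at chr13:13182715-13191923 on the plus strand. The group spans 401.1 kb with 0 other protein-coding genes between its members, and no exon of a member overlaps an exon of another annotated gene. The other listed copy, Prl2c1, lies 14.7 Mb away at the main prolactin gene cluster and did not exceed 0.0803 FPKM in any library.

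The stretch of 90 coding bases below shows letters that separate the copies. Among ungapped stretches within 1 exon, it was picked for the most differences between Prl2c2 and Prl2c3, then for the most among all 3 copies. The stretch is therefore not a typical one. It covers coding positions 316 to 405, counted from the A of the start codon, and lies within exon 4 of 5 in each gene. Capitals mark the 5 positions at which any copy differs. The positions are chr13:12997378-12997467 for Prl2c2, chr13:12792085-12792174 for Prl2c3 (both minus strand) and chr13:13190586-13190675 for Prl2c5 (plus strand), and the letters are those of the GRCm38 genome.
Prl2c2: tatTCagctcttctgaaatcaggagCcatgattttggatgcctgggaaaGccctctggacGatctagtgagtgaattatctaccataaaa
Prl2c3: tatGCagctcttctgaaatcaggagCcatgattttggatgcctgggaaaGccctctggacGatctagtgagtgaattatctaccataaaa
Prl2c5: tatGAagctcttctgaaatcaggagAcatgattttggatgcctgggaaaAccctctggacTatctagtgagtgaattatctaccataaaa
Prl2c2 and Prl2c3 differ at 1 of these positions (T319G, the Prl2c2 base first). Over their whole coding sequences of 672 bases they differ at 3 positions, T14C, C200A and T319G, which gives 99.6% identity. Prl2c5 was 96.1% identical to Prl2c2 and 96.0% identical to Prl2c3 over the coding sequence. Of all stretches of 50 bases in the transcript, 10.5% in Prl2c2, 21.4% in Prl2c3 and 61.4% in Prl2c5 occur in no other annotated gene, and for stretches of 100 bases the shares are 33.6%, 37.7% and 91.3%. How the authors treated reads that match several copies, and the read length, are not given in the sources used here. The split between Prl2c2 and Prl2c3 is therefore less certain than the family sum, and Gm7040, an annotated pseudogene that shares a stretch of 443 bases with each of them, was not analysed here.

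The proliferins were expressed at all 3 stages. In PM-LMSCs and in M-LMSCs the family sum differed more between the libraries of the stage than the stage means differed from each other. FPKM scales the fragments of a gene to transcript length and to the mapped fragments of the library, so levels may be compared between genes. In replicates 1 and 2 the family sum was 42.9 and 49.3 FPKM at the A stage, 73.8 and 22.0 FPKM at the PM stage, and 39.8 and 7.52 FPKM at the M stage. The A-LMSC libraries lay close together, whereas replicate 1 exceeded replicate 2 by 3.35-fold in PM-LMSCs and by 5.29-fold in M-LMSCs. The highest library, PM-LMSC replicate 1, stood 9.81-fold above the lowest, M-LMSC replicate 2.

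**Figure D1:**
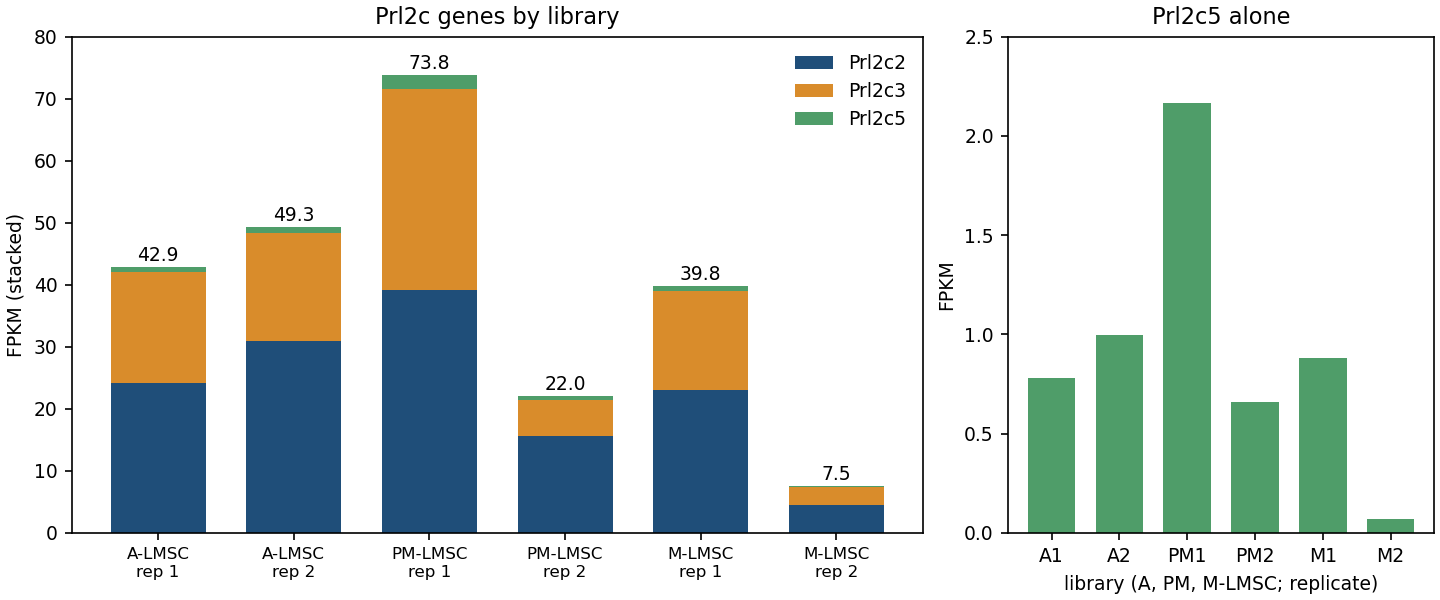
Left, FPKM of Prl2c2, Prl2c3 and Prl2c5 stacked for each of the 6 libraries, with the family sum above each bar. Right, Prl2c5 alone in FPKM on its own axis. All 3 genes were highest in PM-LMSC replicate 1 (sum 73.8 FPKM) and lowest in M-LMSC replicate 2 (sum 7.52 FPKM).

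Prl2c2 was the most abundant copy in every library. It measured 24.2 and 31.0 FPKM at the A stage, 39.1 and 15.6 FPKM at the PM stage, and 23.1 and 4.55 FPKM at the M stage. Its mean over the 6 libraries, 22.9 FPKM, was above that of 80.7% of the 10279 tested genes, which are those that averaged 1 FPKM or more. The A-LMSC and PM-LMSC ranges overlapped, and both M-LMSC libraries were below both A-LMSC libraries, although M-LMSC replicate 1 was below the lower A-LMSC library by little.

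Prl2c3 followed the same order of libraries at the ends. It measured 17.9 and 17.3 FPKM at the A stage, 32.5 and 5.78 FPKM at the PM stage, and 15.9 and 2.91 FPKM at the M stage. The PM-LMSC replicates were 5.62-fold apart and the M-LMSC replicates 5.45-fold apart, against 1.04-fold in A-LMSCs. Its mean of 15.4 FPKM was above that of 72.7% of the tested genes.

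Prl2c5 was the minor copy and did not reach the filter of 1 FPKM, with a mean of 0.926 FPKM, so 2 of the 3 members are among the genes tested. It measured 0.782 and 0.998 FPKM at the A stage, 2.17 and 0.660 FPKM at the PM stage, and 0.880 and 0.0702 FPKM at the M stage. PM-LMSC replicate 1 was again the highest library and M-LMSC replicate 2 the lowest, and the M-LMSC libraries lay on either side of A-LMSC replicate 1. These levels rest on few fragments. From the sequencing depth estimated for each library (14500000 to 21000000 fragments), the M-LMSC replicate 2 value of Prl2c5 corresponds to about 1.0 fragment and the highest value, in PM-LMSC replicate 1, to about 26.5 fragments. For Prl2c2 the same estimate ranged from 64.7 to 477.9 fragments, and for Prl2c3 from 42.1 to 403.6 fragments.

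The division of the family sum among the copies varied less than the sum. Prl2c2 held between 53.0% and 70.8% of it, Prl2c3 between 26.2% and 44.0% and Prl2c5 between 0.933% and 2.99%. PM-LMSC replicate 2 had the highest share of Prl2c2, and there the ratio of Prl2c2 to Prl2c3 was 2.70, against 1.21 to 1.79 in the other 5 libraries. Whether that ratio reflects the transcripts or the assignment of shared reads cannot be told apart with this table. On the log2(FPKM + 1) scale the levels of the copies moved together across the 6 libraries, with Pearson r of 0.95 between Prl2c2 and Prl2c3, 0.92 between Prl2c2 and Prl2c5, and 0.92 between Prl2c3 and Prl2c5. These r values describe 6 points whose genes share reads, so they are not independent of the sequence identity above.

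By stage, the mean family sum was 46.1 ± 4.49 FPKM (SD, n = 2) in A-LMSCs, 47.9 ± 36.6 FPKM in PM-LMSCs and 23.7 ± 22.8 FPKM in M-LMSCs. The order of the means was PM-LMSC, A-LMSC and M-LMSC, and no neighbours in that order differed by more than the SD of the wider group. For Prl2c2 the means were 27.6 ± 4.82, 27.4 ± 16.6 and 13.8 ± 13.1 FPKM in A-LMSCs, PM-LMSCs and M-LMSCs. For Prl2c3 they were 17.6 ± 0.474, 19.1 ± 18.9 and 9.38 ± 9.16 FPKM in the same order. For Prl2c5 they were 0.890 ± 0.153, 1.41 ± 1.07 and 0.475 ± 0.573 FPKM. The SD was close to the mean itself in M-LMSCs for all 3 genes and in PM-LMSCs for Prl2c3.

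Relative to A-LMSCs, the mean log2(FPKM + 1) of the family sum in M-LMSCs differed by -1.33 (SE 1.16, taken from the spread within stages). The difference was -0.10 when the replicates numbered 1 were compared and -2.56 for those numbered 2, so replicate 2 carried nearly all of it. Without M-LMSC replicate 2 the value was -0.20, and without M-LMSC replicate 1 it was -2.46. Both M-LMSC libraries were below both A-LMSC libraries for the sum, for Prl2c2 and for Prl2c3, and not for Prl2c5. Of all tested genes 24.4% had both M-LMSC libraries below both A-LMSC libraries, and since the members were chosen on these values nothing is read from their count. The log2 differences were -1.30 (SE 1.02) for Prl2c2, -1.20 (SE 1.28) for Prl2c3 and -0.41 (SE 0.51) for Prl2c5.

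The comparison of PM-LMSCs with A-LMSCs had no single direction. The log2 difference of the family sum was -0.18 (SE 1.16), made of 0.77 for the replicates numbered 1 and -1.13 for those numbered 2. Prl2c2 (-0.14, SE 1.02) and Prl2c3 (-0.31, SE 1.28) were below 0 and Prl2c5 (0.28, SE 0.51) above 0 on this scale, each by less than its SE, and each was higher in PM-LMSCs in replicate 1 and lower in replicate 2. Without PM-LMSC replicate 2 the difference of the sum was 0.67 and without PM-LMSC replicate 1 it was -1.03.

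Between M-LMSCs and PM-LMSCs the family sum was lower in M-LMSCs for both replicate numbers, by a log2 difference of -0.87 for replicate 1 and -1.43 for replicate 2, with a mean of -1.15 (SE 1.16). The 4 values nevertheless overlapped, because M-LMSC replicate 1 (39.8 FPKM) was above PM-LMSC replicate 2 (22.0 FPKM). The corresponding log2 differences were -1.16 (SE 1.02) for Prl2c2, -0.89 (SE 1.28) for Prl2c3 and -0.69 (SE 0.51) for Prl2c5. Without M-LMSC replicate 2 the difference of the sum was -0.02.

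The spread of the proliferins within stages was large among the genes measured. The members were chosen after these values had been seen, so their ranks are a description. Prl2c2 and Prl2c3 also share reads, so their ranks are not separate observations. The pooled within-stage SD on the log2(FPKM + 1) scale was 1.02 for Prl2c2 and 1.28 for Prl2c3, against a median of 0.14 over the 10279 tested genes, and 25 and 16 of those genes had a larger one. In M-LMSCs, replicate 1 exceeded replicate 2 by 2.12 for Prl2c2 and by 2.11 for Prl2c3, and 6 and 7 tested genes had a larger excess. Only 7 tested genes were at least 1 higher in replicate 1 in both PM-LMSCs and M-LMSCs, among them Prl2c2, Prl2c3 and the chemokine gene Ccl6. A further pair of these, Gm28661 and Gpr176, were at least 1 higher in replicate 1 at all 3 stages, which the proliferins were not: in A-LMSCs Prl2c2 was 0.35 lower in replicate 1 (-0.35) and Prl2c3 was 0.05 higher.

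Some genes differed by replicate number at every stage. With a log2 difference of at least 1 in the same direction at all 3 stages, 5 tested genes did so, 2 higher in replicate 1 (Gm28661 and Gpr176) and 3 higher in replicate 2 (Fgf2, Gm29232 and Syngr2). The largest was Gm28661, at 1199, 1302 and 1342 FPKM in the replicates numbered 1 of A-LMSCs, PM-LMSCs and M-LMSCs and 32.0, 27.5 and 43.5 FPKM in those numbered 2. These genes were picked out after their values were seen. Replicate number thus marks a difference between libraries that the labels do not name, and its part in the spread of the proliferins was not tested.

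In PM-LMSCs and M-LMSCs the nearest protein-coding genes differed less between replicates than the proliferins did. The proliferins were chosen with these values in view, and in M-LMSCs only 6 and 7 tested genes had a larger excess than Prl2c2 and Prl2c3. Most tested genes would therefore give the same contrast, and nothing is read from it. Of the 5 nearest listed genes on each side, 7 passed the filter of 1 FPKM. They included Gpr137b, Heatr1, Ero1lb and Nid1, which encodes the basement membrane protein nidogen and was the most abundant, at 156 to 236 FPKM. In M-LMSCs replicate 1 exceeded replicate 2 by 0.08 to 0.44 for the 7 neighbours on the log2(FPKM + 1) scale, against 2.12 and 2.11 for Prl2c2 and Prl2c3. In PM-LMSCs the neighbours ranged from -0.01 to 0.36, against 1.27 and 2.30. In A-LMSCs they ranged from -0.09 to 0.32, against -0.35 for Prl2c2, 0.05 for Prl2c3 and -0.17 for Prl2c5. There Prl2c2 and Prl2c5 lay below the range of the neighbours and Prl2c3 within it. The largest neighbour difference, that of Lyst (0.32), was opposite in direction to that of Prl2c2.

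**Figure D2:**
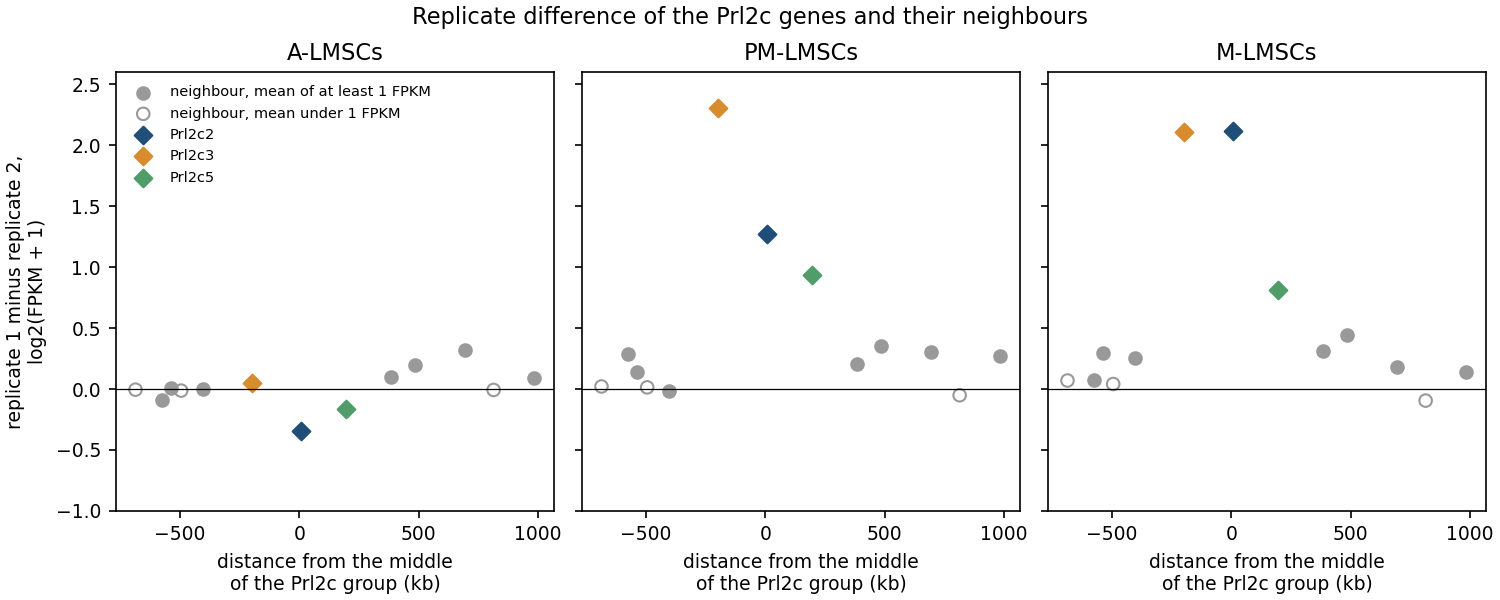
The log2(FPKM + 1) difference of replicate 1 minus replicate 2 is plotted against distance in kb from the middle of the Prl2c group, for A-LMSCs, PM-LMSCs and M-LMSCs. Diamonds are the Prl2c genes and circles the 10 nearest listed protein-coding genes (open where the mean is under 1 FPKM). In M-LMSCs Prl2c2 and Prl2c3 sit at 2.12 and 2.11, and the filled neighbours sit between 0.08 and 0.44. The Prl2c genes were chosen with these values in view, so the contrast is a description.

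The start regions of the copies are also alike. Promoter sequence from RefSeq (GRCm38.p6) was at hand for Prl2c3 and Prl2c5, 2 of the 3 members, as the 250 bases before the annotated start, at chr13:12800080-12800329 on the minus strand and chr13:13182466-13182715 on the plus strand. They are shown because the proliferin promoter is known to bind AP-1, the Fos and Jun factor that growth factors activate. The part of these sequences in the levels of the copies was not tested. Capitals mark matches, searched on both strands, to 3 motifs that do not overlap here. The letters for AP-1 were TGANTCA. Those of the GATA factors were AGATAA. For the box at which transcription machinery assembles they were TATATAA.
Prl2c3: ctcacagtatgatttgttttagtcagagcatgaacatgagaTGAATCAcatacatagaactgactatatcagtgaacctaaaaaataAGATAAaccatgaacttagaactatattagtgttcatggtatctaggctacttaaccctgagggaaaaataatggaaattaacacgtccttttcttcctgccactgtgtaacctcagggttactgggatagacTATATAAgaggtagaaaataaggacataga
Prl2c5: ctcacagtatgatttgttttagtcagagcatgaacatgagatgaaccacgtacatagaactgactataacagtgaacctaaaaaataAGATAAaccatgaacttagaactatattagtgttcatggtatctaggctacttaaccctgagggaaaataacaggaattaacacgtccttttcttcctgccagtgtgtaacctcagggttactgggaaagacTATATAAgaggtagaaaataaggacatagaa
The windows were 96.4% identical, with 8 mismatches and 1 gap position in 250 aligned positions. The AP-1 letters occurred in Prl2c3, 209 bases before the start, and not in the Prl2c5 window. The GATA letters lay 163 bases before the start in both, and the TATATAA letters lay 30 bases before it in Prl2c3 and 31 in Prl2c5. Among 32851 mouse promoter windows of the same length, 6.7% held the AP-1 letters, 10.0% the GATA factor letters and 3.0% TATATAA. The motifs were chosen with the sequences in view, and a match describes letters only.

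The rest of the prolactin family was at or near 0. Of the 24 other listed genes of the family, 6 were listed at 0 in every library and 22 stayed below 0.5 FPKM in every library. Their values summed to between 1.67 and 4.97 FPKM per library, below the family sum of the proliferins in each. The exceptions were Prl3a1 and Prl8a9, which encode other placental members of the family. Prl3a1 was at 1.47 and 1.54 FPKM at the A stage, 2.18 and 1.37 FPKM at the PM stage, and 1.99 and 0.497 FPKM at the M stage. It too was highest in PM-LMSC replicate 1 and lowest in M-LMSC replicate 2, and it was the 1 family member besides the proliferins that passed the filter. No stage comparison called it in the limma fit, with adjusted p of 0.96 for PM-LMSCs and 0.73 for M-LMSCs, each against A-LMSCs, and 0.75 between the later stages. Prl8a9 was at 0.777 and 0.617 FPKM at the A stage, 1.02 and 0.272 FPKM at the PM stage, and 2.09 and 0.391 FPKM at the M stage. Its highest library was M-LMSC replicate 1 and its lowest PM-LMSC replicate 2.

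At least 0.1 FPKM in some library was also reached by Prl itself (0.0815 to 0.366 FPKM), Prl7b1 (0.0652 to 0.366 FPKM) and Prl3d2 (0.0487 to 0.373 FPKM). Prl7a2, Prl7a1, Prl3d3, Gh, Prl2a1, Prl3d1 and Prl2b1 were at 0 in at least 1 library and did not exceed 0.224 FPKM. Differences between stages were not tested for these genes, which lie under the filter of 1 FPKM.

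**Figure D3:**
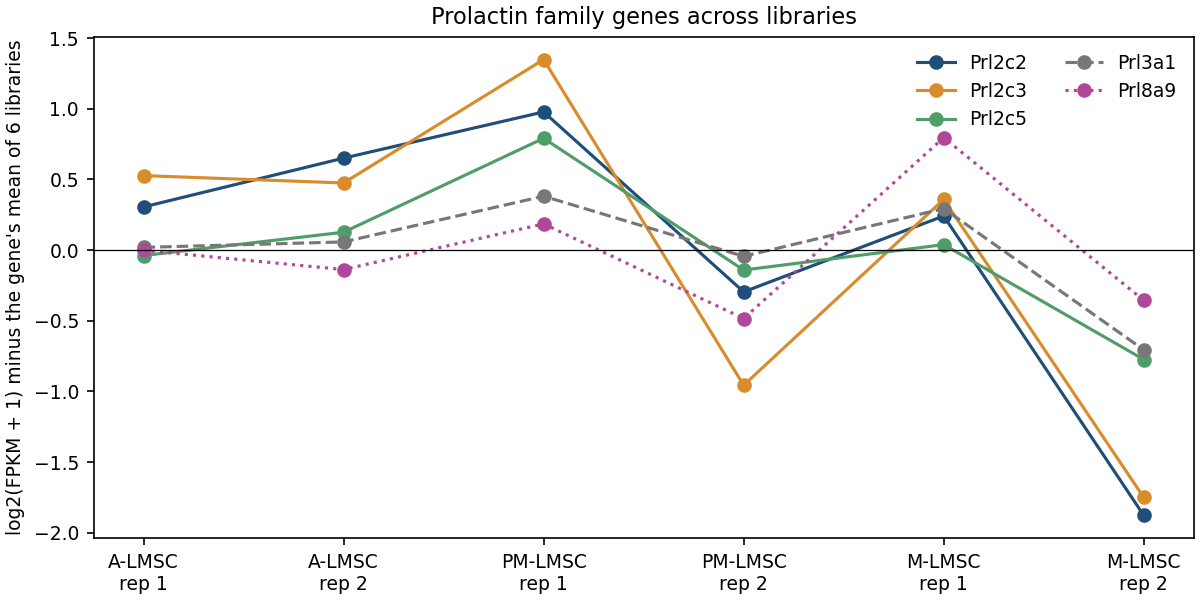
For Prl2c2, Prl2c3, Prl2c5, Prl3a1 and Prl8a9, log2(FPKM + 1) minus the mean of the same gene over the 6 libraries, with points for libraries and lines joining the points of a gene. The 3 proliferins and Prl3a1 peaked in PM-LMSC replicate 1 and were lowest in M-LMSC replicate 2, and Prl8a9 peaked in M-LMSC replicate 1.

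The genes whose levels across libraries were most like the family sum were sought among the tested genes with a range of at least 1 on the log2(FPKM + 1) scale, 599 in number. The 10 with the highest Pearson r over the 6 libraries included Krt20 (0.98), Cd24a (0.95), Prl3a1 (0.94), Igsf11 (0.93), Sdpr (0.91), 4930503L19Rik (0.90), Havcr2 (0.90), Yap1 (0.88) and Il11 (0.87). All 10 were lowest in M-LMSC replicate 2, and without that library 0 of them stayed among the 10 most like the family sum. Of the tested genes, 503 (4.89%) shared with the family sum both its highest library and its lowest.

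Krt20, an intermediate filament gene of simple epithelia, was at 3.16 and 2.82 FPKM at the A stage, 3.48 and 2.29 FPKM at the PM stage, and 2.92 and 1.22 FPKM at the M stage. Cd24a, a surface glycoprotein gene, was at 51.9 and 57.6 FPKM at the A stage, 63.8 and 48.2 FPKM at the PM stage, and 63.2 and 29.9 FPKM at the M stage. Both kept the order of the family sum at its ends over a narrower range. Il11, a cytokine of the interleukin-6 family, was at 7.72 and 7.06 FPKM at the A stage, 9.87 and 6.18 FPKM at the PM stage, and 12.3 and 2.75 FPKM at the M stage. Yap1, the transcriptional coactivator of the Hippo pathway, ranged from 12.0 FPKM in M-LMSC replicate 2 to 29.5 FPKM in M-LMSC replicate 1. Sdpr, a caveola component, was at 52.9 FPKM in M-LMSC replicate 2 and at 157 FPKM in A-LMSC replicate 1.

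**Figure D4:**
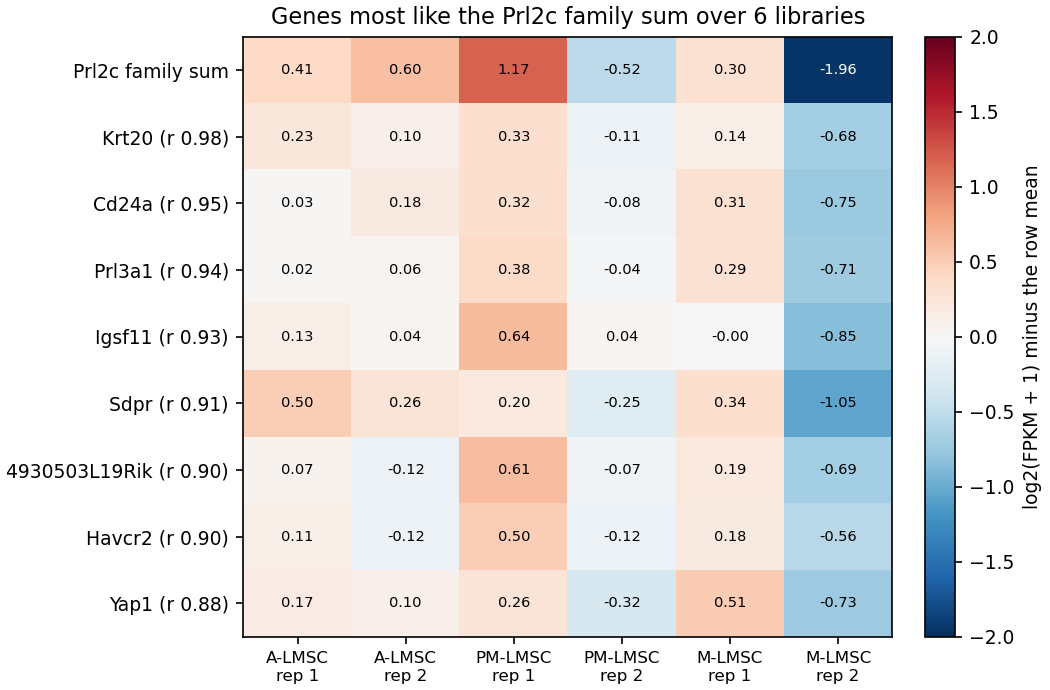
Heat map of log2(FPKM + 1) minus the row mean for the family sum and the 8 genes most like it, with the 6 libraries as columns and Pearson r beside each gene. M-LMSC replicate 2 is the lowest column in every row, and the colour scale runs from -2 to 2.

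The genes around the proliferins in known biology were taken from lists of receptors, inducing pathways and cell types. Over all tested genes the limma fit called 0.0389% of genes in PM-LMSCs against A-LMSCs, 0.0681% in M-LMSCs against A-LMSCs and 0.0292% in M-LMSCs against PM-LMSCs (4, 7 and 3 genes at an adjusted p under 0.05). Libraries with the same replicate number deviated together in these data, although the labels do not say that they are paired. With that number as a block the same comparisons called 0.292%, 3.92% and 0.418% of the genes (30, 403 and 43). The block was chosen from the same values to which it was fitted, so calls made only with it depend on that choice. Of the 115 tested genes of the lists, 0, 1 and 0 were called without the block in the 3 comparisons and 4, 29 and 2 with it.

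The receptor that binds proliferin was expressed in every library. Igf2r ranged from 18.0 to 23.5 FPKM over the 6 libraries, and M6pr, which encodes the cation-dependent mannose 6-phosphate receptor, from 24.9 to 30.5 FPKM. The prolactin receptor gene Prlr was at 0 in 4 libraries and did not exceed 0.00532 FPKM. Of 13 tested genes for these receptors and for signalling of the prolactin type, such as Stat3, Shc1 and Ptpn11, none was called by limma in any comparison, with or without the block. Their median log2 differences were 0.07 in PM-LMSCs against A-LMSCs, 0.09 in M-LMSCs against A-LMSCs and 0.13 in M-LMSCs against PM-LMSCs, beside 0.01, 0.03 and -0.00 over all tested genes.

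The AP-1 and serum-response genes were all expressed, at levels that differed widely. All 19 were tested, from Fosb at 0.806 to 1.26 FPKM upward, and the most abundant were Junb (82.9 to 117 FPKM), Jund (59.6 to 94.5 FPKM) and Ier3 (61.1 to 81.96 FPKM). None was called without the block. With it, 1 was lower at the M stage than at the A stage, the Fos-related factor Fosl1, at 32.9 and 31.1 FPKM at the A stage, 31.0 and 29.3 FPKM at the PM stage, and 19.9 and 19.5 FPKM at the M stage (log2 difference -0.68, limma adjusted p = 0.022 with the block and 0.088 without). Fosl1 replicates lay close together at each stage, unlike those of the proliferins in PM-LMSCs and M-LMSCs. Of 18 tested growth factor receptor and MAP kinase genes, among them Pdgfrb, Map2k1 and Mapk3, none was called in any comparison with or without the block.

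Other genes that mitogens induce in fibroblasts gave a mixed picture. Of 16 tested, none was called without the block, and 3 rose from the A stage to the M stage with it. These were the chemokine genes Ccl2 (log2 difference 0.72, adjusted p = 0.025 with the block and 0.35 without in limma) and Ccl7 (0.86, adjusted p = 0.027 and 0.35), and the cytokine gene Lif (0.52, adjusted p = 0.042 and 0.22). Among the most abundant genes of the list, Timp1 (837 to 1013 FPKM) and Odc1 (97.9 to 122.3 FPKM) were not called.

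Many of the cell cycle genes were lower in M-LMSCs, where the mean proliferin level was also lowest. All 14 were tested. In M-LMSCs against A-LMSCs 10 were called lower with the block and none without it, with a median log2 difference of -0.63. They included the proliferation marker Mki67 (-0.69, limma adjusted p = 0.045 with the block and 0.23 without), the mitotic kinase genes Plk1 (-1.05, 0.019 and 0.18) and Aurka (-0.99, 0.016 and 0.074), and Rrm2 (-0.62, 0.038 and 0.11), a subunit of ribonucleotide reductase. The others were Bub1, Ccna2, Ccne1, E2f1, Mcm2 and Mcm5. The summed level of the list was 198 and 215 FPKM at the A stage, 174 and 169 FPKM at the PM stage, and 110 and 132 FPKM at the M stage. Within M-LMSCs the sum was higher in replicate 2, in which the proliferins were lowest. The study itself reports that cultured LMSCs of the different stages were similar in their capacity to proliferate.

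**Figure D5:**
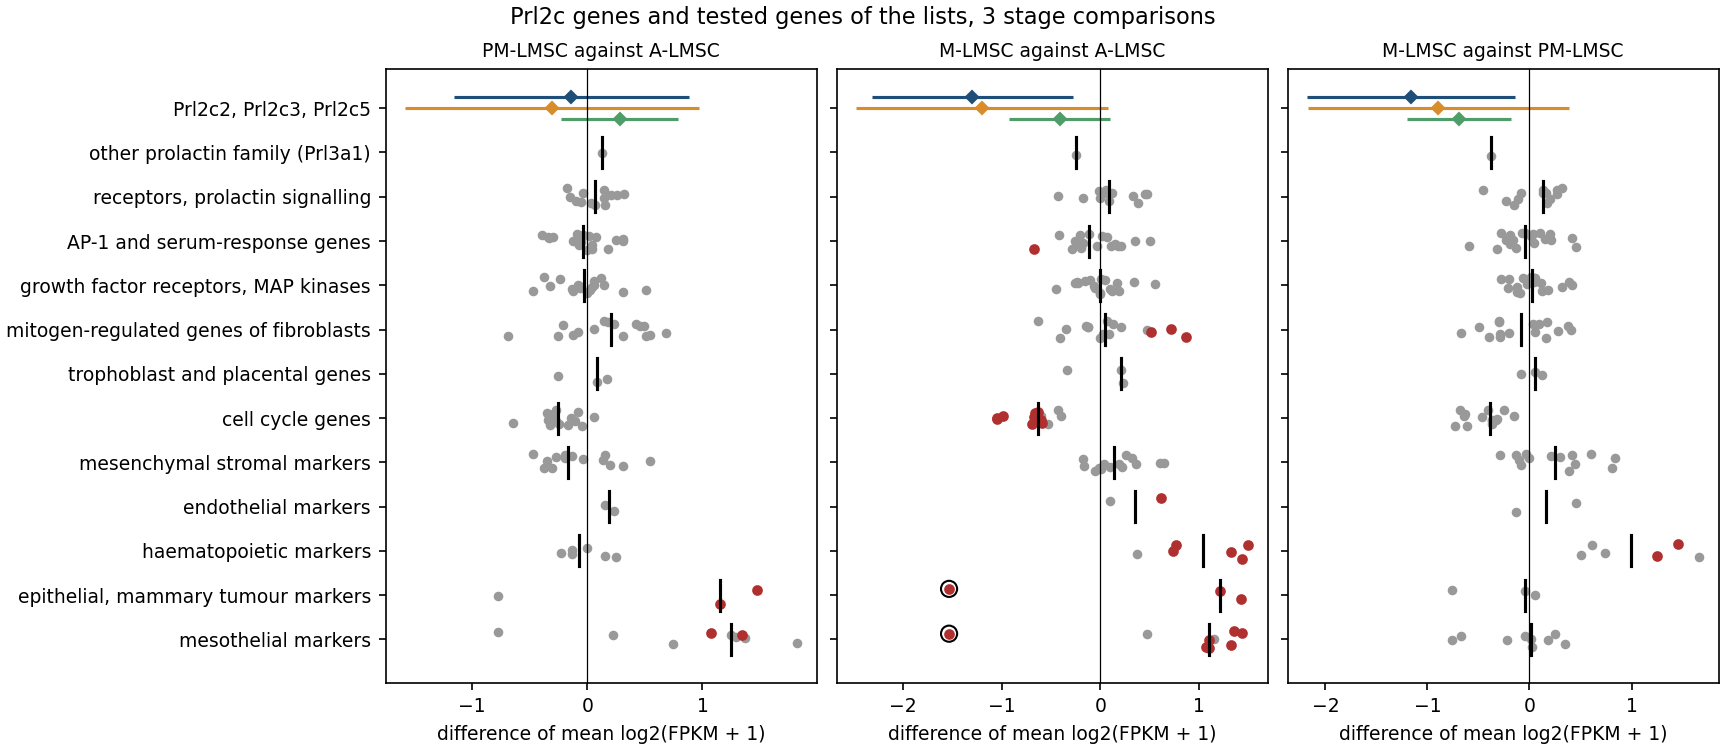
Differences of mean log2(FPKM + 1) between stages for Prl2c2, Prl2c3 and Prl2c5 (diamonds with SE, not tested) and for the tested genes of the 12 lists (dots, vertical bars are list medians). Red dots passed an adjusted p under 0.05 in limma with the replicate block, and black rings mark Krt19, which passed without it. In M-LMSCs against A-LMSCs 10 of 14 cell cycle genes are red with a list median of -0.63.

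The cultures expressed the listed markers of mesenchymal stromal cells, at levels that differed widely. All 14 of these were tested and none was called in any comparison with or without the block. Col1a1, a chain of type I collagen, ranged from 761 to 1472 FPKM and Itgb1, which encodes the surface marker CD29, from 283 to 466 FPKM. The lowest of the list were Pdgfra (6.31 to 9.67 FPKM), Ly6a (1.99 to 5.74 FPKM) and Nt5e (1.66 to 3.68 FPKM). Genes that mark trophoblast, the cells in which proliferin is best known, were largely absent. Of the 24 listed, 11 were at 0 in every library, among them Hand1, Cdx2 and Synb, and 20 stayed below 0.5 FPKM. Gata2 (3.30 to 5.98 FPKM), Peg10 (4.44 to 7.40 FPKM) and Plet1 (0.813 to 1.70 FPKM) were the 3 tested, and none was called with or without the block.

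Markers of other cell types differed between stages and between libraries of a stage. In bulk RNA fewer cells of a type and less RNA per cell cannot be told apart. The 10 mesothelial markers summed to 126 and 185 FPKM at the A stage, 308 and 428 FPKM at the PM stage, and 209 and 512 FPKM at the M stage, so the sum was higher in replicate 2 at each stage and highest in the library with the least proliferin. Of 9 tested, 6 were called higher at the M stage than at the A stage with the block (Upk3b, Lrrn4, Wt1, Bnc1, Upk1b and Gpm6a), and 2 of them, Lrrn4 and Bnc1, in PM-LMSCs as well. Krt19, a keratin on both the mesothelial and the epithelial list, fell from the A stage to the M stage (log2 difference -1.53, limma adjusted p = 0.039 without the block and 0.0095 with it).

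The 12 haematopoietic markers summed to 135 and 127 FPKM at the A stage, 171 and 78.3 FPKM at the PM stage, and 407 and 296 FPKM at the M stage. Most of this was Lyz2, the lysozyme gene of macrophages, although the cultures had been depleted of CD45+ cells and Ptprc, which encodes CD45, did not exceed 0.0987 FPKM. Ly6g, a neutrophil marker, was at 0 in every library. With the block 5 of 6 tested exceeded their A-LMSC level in M-LMSCs (Tyrobp, Fcer1g, Lyz2, Cd14 and Cd68), and Tyrobp and Fcer1g also exceeded PM-LMSCs. None was called without it. The haematopoietic sum was higher in replicate 1 than in replicate 2 at every stage, whereas the proliferin sum was so only in PM-LMSCs and M-LMSCs. By stage, the haematopoietic sum was highest in M-LMSCs, where the mean family sum of the proliferins was lowest.

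The 14 epithelial and mammary tumour markers summed to between 16.5 and 29.2 FPKM, higher in replicate 2 at each stage. Csn2 and Wap were at 0 in every library and Epcam was at 0 in 4 and did not exceed 0.473 FPKM. Of the 3 tested, Krt8 and Krt18 exceeded their A-LMSC level at both later stages with the block and not without it. The 11 endothelial markers summed to between 4.03 and 5.90 FPKM, and Pecam1 did not exceed 0.0337 FPKM. Kdr, a receptor for vascular endothelial growth factor, rose from the A stage to the M stage with the block (log2 difference 0.61, limma adjusted p = 0.029, and 0.10 without). The part of these cell types in the proliferin levels was not tested.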

How the data were processed

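RNA-seq was carried out on total RNA of cultured LMSCs, and the deposited FPKM values of 34745 genes were used. Per the labels and the submitters' processing notes, the authors aligned reads with TopHat2 2.0.9 to mm10. The quantifier, the read length and the handling of reads with several matches are not given in the sources used here. Gene positions came from GENCODE M21 (GRCm38), which held 34344 of the table's IDs. Depth was estimated from the spacing of low FPKM values and the exon length.

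From the FPKM values, log2(FPKM + 1) was fitted by limma 3.58.1 for the 10279 genes averaging 1 FPKM or more (R 4.3.3, moderated with a trend, 1 mean per stage, all 6 libraries), with Benjamini-Hochberg adjustment over these genes and a threshold of 0.05. Samples with the same replicate number in their titles deviated together (correlation of deviations from the stage means 0.24, 0.31 and 0.49 for the 3 pairs of stages), so a fit blocked on that number is printed wherever it alters a call. The members and the 12 lists were chosen with earlier results of these data known. The named genes were the 3 members, other prolactin family genes of at least 0.1 FPKM in a library, called genes and the 3 most abundant genes of each list, the 10 genes most like the family sum and 5 neighbours on each side. A few genes that this rule names are not reported here. Only the fit without the block was tried on simulated data, for M-LMSCs against A-LMSCs and with independent noise in each library. The blocked fit and the alternatives were not simulated. Alternatives were a pseudocount of 0.1, no filter, quantile normalization, median centring, the stages compared alone, other family sums and leaving out each library. FPKM totals ranged from 258249 to 271408 per library. Library profiles correlated at 0.98 to 0.99 within a stage and 0.97 to 0.99 between stages.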

Additional observations from a re-analysis of the deposited data

Results flagged for a closer look

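Of the 64 members and named genes examined, 2 are given here because all PM-LMSC libraries lay on one side of both A-LMSC libraries and all M-LMSC libraries on the other, so the later stages lay in opposite directions from A-LMSCs. Over all tested genes 296 (2.88%) showed such a pattern. The 2 of 64 were near that share, and nothing is read from the count. That share covers only genes that averaged 1 FPKM or more, whereas the 64 include genes under that filter, Prl3d2 among them. Odc1, the ornithine decarboxylase gene that serum induces, was at 109.3 and 109.1 FPKM at the A stage, 122.3 and 119.6 FPKM at the PM stage, and 99.4 and 97.9 FPKM at the M stage. Its log2 level was lower in M-LMSCs than in PM-LMSCs by a difference of -0.29, and limma did not call that difference (adjusted p = 0.46, and 0.22 with the replicate block). Prl3d2, a placental lactogen gene, was at 0.223 and 0.221 FPKM at the A stage, 0.210 and 0.0487 FPKM at the PM stage, and 0.281 and 0.373 FPKM at the M stage. Its log2(FPKM + 1) level was 0.24 higher in M-LMSCs than in PM-LMSCs. That difference was not tested, because the gene lies under the filter of 1 FPKM.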

How the results depend on the processing

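Under every alternative run, the log2 differences of the family sum moved from their reported values by less than the pooled within-stage SD of 1.16, and those of M-LMSCs from A-LMSCs and from PM-LMSCs kept their sign. That SD is built from the same replicate differences, so it does not measure robustness to leaving out a library. Leaving out 1 library at a time gave log2 differences of the sum from -1.03 to 0.67 for PM-LMSC against A-LMSC, from -2.46 to -0.20 for M-LMSC against A-LMSC and from -2.28 to -0.02 for M-LMSC against PM-LMSC. For Prl2c2 in M-LMSCs against A-LMSCs the value was -0.24 without M-LMSC replicate 2 and -2.36 without M-LMSC replicate 1. With a pseudocount of 0.1 Prl2c5 differed by -1.27 between M-LMSCs and A-LMSCs and by -1.68 between M-LMSCs and PM-LMSCs. The counts of called genes depended on the fit, and the cause was not tested beyond the construction of each. For PM-LMSC against A-LMSC, 4 genes were called, 1 with no filter on low values, 21 with only the stages compared, 30 with the replicate block and 1 to 28 leaving out a library. For M-LMSC against A-LMSC the count was 7, and 3, 1 and 403 under the same settings, with 1 to 90 leaving out a library. For M-LMSC against PM-LMSC it was 3, with 43 under the replicate block and 2 to 25 leaving out a library. Of the genes of the lists, PM-LMSC against A-LMSC gave 0, with 1 for only the stages compared, 4 with the replicate block and 0 to 2 leaving out a library. M-LMSC against A-LMSC gave 1, with 0 with no filter, 0 with only the stages compared, 29 with the replicate block and 0 to 7 leaving out a library. M-LMSC against PM-LMSC gave 0, with 2 under the replicate block. Of the 10 genes most like the family sum, 5 stayed among the top 10 with a pseudocount of 0.1, and 0 to 9 did when a library was left out. The replicate block changed no other call given here. The depth of 14500000 to 21000000 fragments limits Prl2c5 and the other prolactin family genes below 0.5 FPKM.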

Other observations

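Genes with the opposite pattern were looked for after the values were seen, among the same 599 genes, and 16 had a Pearson r of -0.9 or less with the family sum over the 6 libraries. The first 5 were C4b (-0.98), Rpp25 (-0.98), Kif21b (-0.97), C2 (-0.96) and Cfi (-0.96). Of these, C4b, C2 and Cfi belong to the complement system, whose share of the 599 genes was not counted. C4b was at 1.93 and 1.90 FPKM at the A stage, 1.52 and 2.73 FPKM at the PM stage, and 2.00 and 5.94 FPKM at the M stage. Col3a1, a collagen gene, was at 229 and 221 FPKM at the A stage, 168 and 230.2 FPKM at the PM stage, and 262 and 473 FPKM at the M stage. These genes were highest in M-LMSC replicate 2, in which the proliferins were lowest, and the r values were not tested. How far the r values rest on that library was not examined.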
